A study of Mus musculus with 18 samples.

Results

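The Ran GTPase cycle genes were followed at the mRNA level in mouse NIH/3T3 fibroblasts with and without XPO4. The 7 genes were Ran, Rangap1, Rcc1, Ranbp1, Ranbp3, Nutf2 and Rangrf, picked by symbol for their roles in the cycle and found among the 55401 genes of the mRNA count files. The mRNA-seq data comprised 6 libraries, 3 from wild-type (WT) cells and 3 from XPO4 knockout (KO) cells. A further 12 circRNA-seq libraries came from RNase R treated RNA, with 2 each of nuclear, cytoplasmic and total RNA for each genotype. NIH/3T3 is an immortalised line of mouse embryonic fibroblasts. The KO cells were made from it with CRISPR-Cas9, and the study's methods describe a single KO line in which both copies of the gene carry the same edit. An effect of the edit and a difference between cell lines can therefore not be told apart, and p-values measure only the spread between the libraries, which may be technical.

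Ran is a small GTPase that sets the direction of transport through the nuclear pore. RCC1, which sits on chromatin, loads Ran with GTP in the nucleus, and RanGAP1, much of which is tethered to the cytoplasmic face of the pore through SUMO, triggers GTP hydrolysis in the cytoplasm. Exportins such as XPO4 bind their cargo together with RanGTP and release it after hydrolysis, RANBP1 helps to take such complexes apart, RANBP3 is a nuclear cofactor of the exportin CRM1, and NTF2, the product of Nutf2, carries RanGDP back into the nucleus. Rangrf encodes MOG1, a Ran-binding factor that can release nucleotide from Ran.

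The 6 mRNA libraries held between 16974062 and 22057323 counted reads. In 6 of the 6 mRNA files the header names an input alignment of the other genotype than the sample title. The titles were followed, and every direction given for mRNA would turn around if the headers were right. The transcript of the targeted gene did not settle this: Xpo4 was read 657, 614 and 685 times in the WT libraries and 712, 504 and 687 times in the KO libraries. Its log2 fold change of 0.18 did not pass (SE 0.110, edgeR adjusted p = 0.193), and a genome edit need not lower mRNA. KO replicate 2 stood apart from the other libraries. The chi-square per gene between replicates was 9.74 and 11.3 for its pairs and between 2.92 and 4.65 for the other pairs. Against the other KO libraries, its median log2 deviation was 0.118 for genes with under 2000 exon bases and -0.13 for genes with over 6000. Fibroblast markers were abundant, with a summed level of 1730 to 1760 FPKM (fragments per kilobase of exon and per 1000000 counted reads) in WT and 1900 to 2050 in KO. Of these 8 markers 5 rose and 2 fell in KO. Thy1 (log2 fold change 0.86, adjusted p = 4.53e-08), S100a4 (0.80, adjusted p = 0.00166) and Vim (0.35, adjusted p = 0.000228) were the largest rises, and Col1a1 (-0.34, adjusted p = 0.000676) and Pdgfra (-0.21, adjusted p = 0.0267) fell. Without KO replicate 2 the log2 fold changes of S100a4 and Pdgfra were 0.53 and -0.12, and Pdgfra lost its call without WT replicate 1, 2 or 3 (adjusted p = 0.0859, 0.0755 and 0.0548). The label's extraction text mentions blood, so 8 blood cell markers were looked at: their summed level was 0.327 to 0.411 FPKM in WT and 1.0 to 1.14 in KO, and 4 of the 8, Cd3e and the globins Hba-a2, Hbb-bs and Hbb-bt, were at 0 in every library. The globin Hba-a1 had 0 reads in the WT libraries and 8, 7 and 6 in KO, too few for the filter, and passed as higher in DESeq2 (adjusted p = 0.00177) and in edgeR without the filter (adjusted p = 0.000271). Lyz2 had 1 to 3 reads in WT and 10 to 13 in KO (log2 fold change 2.64, adjusted p = 0.00127), and Ptprc had 103 to 108 and 21 to 32 (-1.78, adjusted p = 1.03e-05). Of 4 epithelial markers, Epcam and Krt18 were at 0, and Krt14 fell from 89 to 112 reads in WT to 8 to 18 in KO (-2.83, adjusted p = 2.26e-06). The part of these markers in the results below was not tested.

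Rcc1 and Rangap1, the genes for the exchange factor and the GTPase activator of the cycle, fell in KO cells. The falls were 23.4% (95% confidence interval 15.8% to 30.2%) for Rcc1 and 16.0% (8.78% to 22.6%) for Rangap1. Ran itself, Ranbp1, Ranbp3 and Nutf2 did not pass the test, and Rangrf had too few reads to be tested. Thus 2 of the 6 members tested passed, both lower in KO, where 48.7% of the 14688 genes tested passed in either direction 25.1% passed as higher and 23.6% as lower. Against this background, the count of members called is no result about the cycle as a group. The median log2 fold change was -0.09 over the 6 members and -0.003 over all genes tested.

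**Figure D1:**
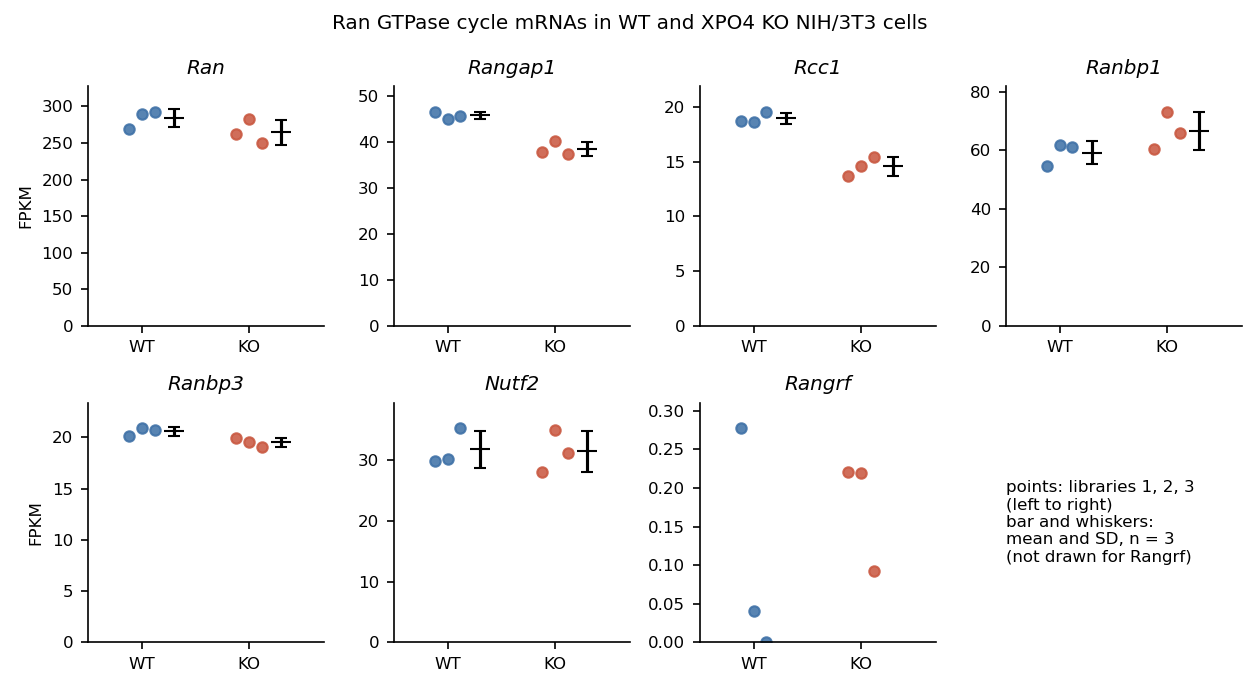
FPKM (vertical axes, from 0) of each Ran cycle gene in the 3 WT (blue) and 3 KO (red) libraries, with the mean and SD beside the points. The KO points of Rangap1 (37.4 to 40.2) and Rcc1 (13.6 to 15.4) lie below all WT points by the widest margins, and those of Ran, Ranbp1 and Nutf2 overlap WT.

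The members differed widely in level. By mean FPKM, which corrects for exon length, the order in WT was Ran (284 ± 12.5, SD, n = 3), Ranbp1 (59.3 ± 3.91), Rangap1 (45.7 ± 0.766), Nutf2 (31.8 ± 3.02), Ranbp3 (20.6 ± 0.410) and Rcc1 (19.0 ± 0.504). Rangrf could not be placed in this order, since its counts give no usable level. The place of Nutf2 is uncertain. An exact near copy covers most of its transcript, and reads of the gene and of the copy cannot be told apart there. Ran was 4.79 times as abundant per length as the next member, Ranbp1, and its level exceeded that of 99.1% of the genes tested. Rcc1, the exchange factor, was at the 80.1% mark and Rangap1 at the 92.7% mark. The KO cells gave the same order, and the ranges of neighbouring members did not overlap in either genotype. The step from Ranbp3 to Rcc1 in WT was the smallest, 1.08-fold. An alternative chosen after seeing the data left the exon bases that another gene also covers out of the length. The WT ranges of this pair then overlapped (20.1 to 20.9 against 19.3 to 20.3). By the same measure Ranbp1 had 68.6, 77.4 and 76.6 FPKM in WT and Ran was unchanged, so Ran exceeded Ranbp1 by less than 4.79-fold.

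Ran, the GTPase at the centre of the cycle, lies on chromosome 5 of GRCm38 (129020069 to 129024323, plus strand). Its level was 269.7, 289.5 and 292.7 FPKM in the WT libraries and 262, 283 and 249.4 in the KO libraries. KO replicate 2 was the highest KO library and lay within the WT range, while the other KO libraries lay below all WT libraries. The log2 fold change was -0.10 (SE 0.0612), or 6.84% lower with a 95% interval from 15.0% lower to 2.1% higher, and did not pass (edgeR adjusted p = 0.186). Without KO replicate 2 it was -0.15 and passed (adjusted p = 0.00592), so the call on Ran rested on the library that stood apart. In that smaller fit 48.6% of all genes passed. Leaving out any other library gave an adjusted p between 0.126 and 0.545.

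The sequence upstream of Ran is shown because, among the members with a RefSeq promoter window, it alone held the motif searched for, CACGTG, the E-box bound by Myc and Max among others. The motif is its own reverse complement, so both strands were covered. RefSeq windows (GRCm38.p6, from 250 bases before to 50 after a start site) were matched for 6 of the 7 members, all but Ranbp3. CACGTG occurs in 7.15% of the 32851 mouse promoter windows. In Ran it begins 118 bases before the RefSeq start, and it is printed in capitals among the bases of the window that lie outside annotated exons. The window of Rcc1, the member with the strongest fall, is set below it for comparison and does not hold it. The RefSeq starts used for Rcc1, Rangap1 and Rangrf (132345750, 81729919 and 68973855) lie inside these minus-strand genes. The annotated upstream ends of the genes (132353605, 81745530 and 68975185) lie outside the windows and were not searched.
Ran, chr5:129019906-129020068, plus strand: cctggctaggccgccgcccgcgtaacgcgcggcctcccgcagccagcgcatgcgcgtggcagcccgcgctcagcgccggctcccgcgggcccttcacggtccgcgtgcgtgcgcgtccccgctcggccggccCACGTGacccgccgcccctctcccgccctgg
Rcc1, chr4:132345751-132346000, minus strand: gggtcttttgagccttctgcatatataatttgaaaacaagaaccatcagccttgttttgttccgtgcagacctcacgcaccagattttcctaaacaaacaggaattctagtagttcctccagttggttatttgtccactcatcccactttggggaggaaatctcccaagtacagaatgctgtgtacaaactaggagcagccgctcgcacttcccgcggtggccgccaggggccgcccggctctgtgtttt
The printed bases are 81.6% G or C for Ran and 49.6% for Rcc1. A match to these letters is a description and was not tested for binding.

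Rcc1, the nucleotide exchange factor, lies on chromosome 4 (132331919 to 132353605, minus strand). It had 18.7, 18.6 and 19.5 FPKM in WT and 13.6, 14.6 and 15.4 in KO, and every KO library was lower than every WT library, as was so for 28.5% of all genes tested. Its log2 fold change was -0.38 (SE 0.0628, edgeR adjusted p = 0.000222). The gene kept a unique 96.5% of its exon bases. It shares 135 bases with Snhg3, which had 0 to 3 reads, and 19 with Gm17300 on the other strand, which had 132 to 136 reads in WT and 67 to 92 in KO (log2 fold change -0.49, adjusted p = 0.0241). These reads were few beside the 1400 to 1659 of Rcc1 in WT and its 935 to 1009 in KO. Reads on the shared bases may be missing from all of these counts, which therefore do not measure the effect of the overlap.

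Rangap1, which encodes the GTPase activator, lies on chromosome 15 (81704248 to 81745530, minus strand). Its level was 46.5, 45.0 and 45.6 FPKM in WT and 37.8, 40.2 and 37.4 in KO, without overlap between the genotypes. All KO libraries lay below all WT libraries for 28.5% of all genes tested. The log2 fold change was -0.25 (SE 0.0548, edgeR adjusted p = 0.00199). No other place in the genome matched the Rangap1 or Rcc1 transcripts at 90% identity over at least 50% of their length, so their reads could be placed without a near copy. Of the exon bases of Rangap1, 98.7% belong to no other gene. The 65 shared bases overlap Zc3h7b on the other strand, which also fell (log2 fold change -0.48, adjusted p = 1.93e-05).

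Ranbp1, which encodes the cytoplasmic partner of RanGAP1, lies on chromosome 16 (18239784 to 18248732, minus strand). It was the only tested member with a positive log2 fold change, 0.17 (SE 0.0770, 95% interval 0.0586% lower to 25.8% higher), and did not pass (edgeR adjusted p = 0.0927). The libraries had 54.8, 61.8 and 61.2 FPKM in WT and 60.4, 73.2 and 66.0 in KO. KO replicate 1 lay within the WT range, and KO replicate 2 was the highest of all. The call turned with the setting. Ranbp1 passed without KO replicate 1 (0.24, adjusted p = 0.0284) and without a filter on low counts (0.17, adjusted p = 0.0462), and had a smaller log2 fold change of 0.09 (adjusted p = 0.224) without KO replicate 2. Only 79.9% of its exon bases are its own. The rest overlaps Gm49776, which had 0 reads in all libraries, and Trmt2a on the other strand, whose log2 fold change was 0.14 (adjusted p = 0.0663).

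Ranbp3, which encodes the nuclear cofactor of CRM1, lies on chromosome 17 (56673294 to 56711764, plus strand). It had 20.1, 20.9 and 20.7 FPKM in WT and 19.9, 19.5 and 19.1 in KO. Every KO library was lower than every WT library, as for 28.5% of all genes tested, but the nearest libraries lay close together. The log2 fold change of -0.08 (SE 0.0530) did not pass (edgeR adjusted p = 0.236). The 95% interval ran from 12.5% lower to 2.48% higher.

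Nutf2, which encodes the carrier that returns RanGDP to the nucleus, lies on chromosome 8 (105860580 to 105879330, plus strand). Its libraries had 29.9, 30.3 and 35.3 FPKM in WT and 28.1, 34.9 and 31.3 in KO, and the genotypes overlapped over most of their range. The log2 fold change was -0.02 (SE 0.0875, edgeR adjusted p = 0.876), and the 95% interval still allowed a level from 13.4% lower to 12.5% higher in KO. Leaving out single libraries turned its sign (0.07 without WT replicate 3 and 0.07 without KO replicate 1). Nutf2 has 5 near copies in the genome, the closest being the pseudogene Nutf2-ps1 on chromosome 19, an exact match over 91.6% of the transcript and 164 to 306 reads of its own. Reads of the gene and of this copy cannot be told apart over most of the transcript. Ran has a single near copy, Gm13461 (98.8% identity over 89.5% of the transcript). Gm13461 had 44 to 49 reads in WT and 70 to 74 in KO, beside the 11202 to 17082 reads of Ran. Reads that fit both places may be missing from both counts, which therefore do not measure the effect of the copy.

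Rangrf, which encodes MOG1, lies on chromosome 11 (68972484 to 68975185, minus strand) and was all but unread. The WT libraries gave 7, 1 and 0 reads and the KO libraries 5, 5 and 2, and it did not pass the filter on low counts. Most of the gene could not be counted here, since only 118 of its 1269 exon bases belong to no other gene. The other 1151 are shared with Slc25a35 on the opposite strand, and the counting command in the file header sets no option for strand, shared features or reads that map to several places. Slc25a35, which encodes a mitochondrial carrier protein, rose in KO, from 64 to 88 reads to 125 to 148 (log2 fold change 1.04, edgeR adjusted p = 0.000181). Reads of the pair cannot be told apart by strand. Near copies of Rangrf held more reads than the gene, with 20 to 31 at Gm10355 (99.5% identity) and 10 to 41 at Gm4535 (99.0%). The deposited counts therefore give no usable level for Rangrf in these cells.

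Ratios between members within a library do not depend on how libraries are scaled, and 3 were compared. The log2 ratio of Rcc1 to Rangap1, the exchange factor against the activator of hydrolysis, was -1.31, -1.27 and -1.22 in WT and -1.47, -1.46 and -1.28 in KO. The KO libraries were lower by 0.13 on average, with KO replicate 3 inside the WT range (two-sided exact permutation test, p = 0.2). The log2 ratio of Ran to Nutf2 was 3.17, 3.26 and 3.05 in WT and 3.22, 3.02 and 3.00 in KO, a difference of -0.08 (exact p = 0.4). Reads that fit both Nutf2 and its exact near copy may be missing from Nutf2, so the size of this ratio is uncertain. The log2 ratio of Ran to Ranbp1 was 2.30, 2.23 and 2.26 in WT and 2.12, 1.95 and 1.92 in KO. In this ratio the genotypes did not overlap, and the difference was -0.27 (exact permutation p = 0.1, the smallest that 3 against 3 libraries allow). With all exon bases in the length, this was 4.79 Ran per Ranbp1 in WT and 3.99 in KO. Both values would be smaller on the unshared bases of Ranbp1. Adjusted over the 3 ratios, p was 0.3, 0.4 and 0.3, so none passed.

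**Figure D2:**
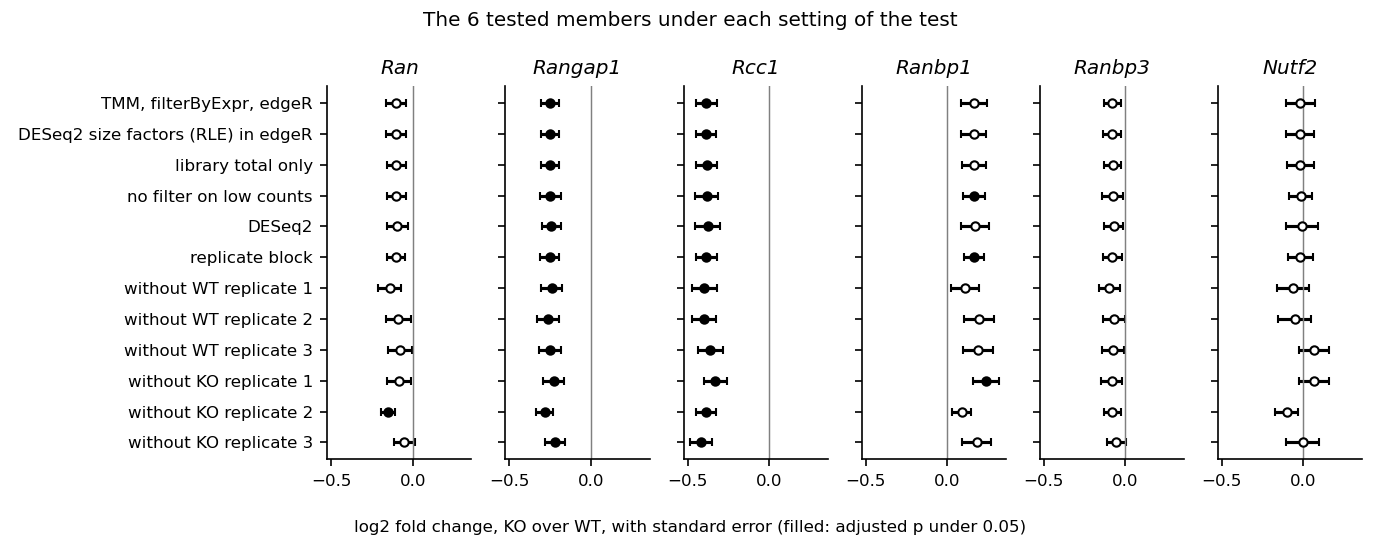
Log2 fold change of KO over WT (horizontal axis, with its standard error) of the 6 tested members under 12 settings of the test, filled where the adjusted p was under 0.05. Rcc1 (-0.42 to -0.33) and Rangap1 (-0.28 to -0.22) are filled in all 12, Ranbp1 in 3, Ran in 1, and Ranbp3 and Nutf2 in none.

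The falls of Rcc1 and Rangap1 passed in 12 of the 12 settings tried, which covered other scalings, no filter, DESeq2, a replicate block and leaving out each library. Their log2 fold changes ranged from -0.42 to -0.33 and from -0.28 to -0.22. As the plot of settings shows, Ran passed in 1 setting, Ranbp1 in 3, and Ranbp3 and Nutf2 in none.

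Other genes that bind Ran or resemble RCC1 changed in both directions. Of the 10 in this list 8 were tested, of which 2 rose and 4 fell, against 25.1% and 23.6% of all genes tested, and their median log2 fold change was -0.09. The same shares of all genes apply to the lists that follow. Ranbp3l, a relative of Ranbp3 known as an export factor for Smads, rose 6.97-fold, from 32, 30 and 34 reads in WT to 235, 172 and 170 in KO (log2 fold change 2.80, SE 0.181, edgeR adjusted p = 4.11e-08). It stayed a scarce transcript, at 0.228 ± 0.00593 FPKM in WT and 1.59 ± 0.286 in KO (SD, n = 3), against 19.5 for Ranbp3 in KO. Ranbp2, whose product is the pore protein that holds RanGAP1 in the cytoplasmic filaments, rose by 0.27 on the log2 scale (adjusted p = 0.00917). Nup50, a pore protein that binds Ran and importin alpha, fell by 0.38 (28.1 ± 0.916 to 21.5 ± 0.716 FPKM, SD, n = 3, adjusted p = 7.69e-05). Ranbp6, an importin-like protein, fell by 0.26 (adjusted p = 0.0163). Ranbp10 and Rcc2 had smaller changes, of -0.18 (adjusted p = 0.0404) and -0.15 (adjusted p = 0.0253). The calls on Ranbp6, Ranbp10 and Rcc2 were lost in 3, 6 and 5 of 11 alternatives. Leaving out WT replicate 1 lowered the change of Ranbp10 most, to -0.11 (adjusted p = 0.211). Rcc2, which shares the RCC1 fold, was the most abundant of the list at 119 ± 2.08 FPKM in WT. Ranbp9 (log2 fold change 0.03, adjusted p = 0.704) and Rcc1l, the mitochondrial relative of RCC1 (-0.04, adjusted p = 0.658), did not pass. Ranbp17 had 0 reads in all libraries, which allows a level of up to 0.0199 FPKM, and Rasl2-9, the germ cell relative of Ran, had 0 to 2 reads.

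**Figure D3:**
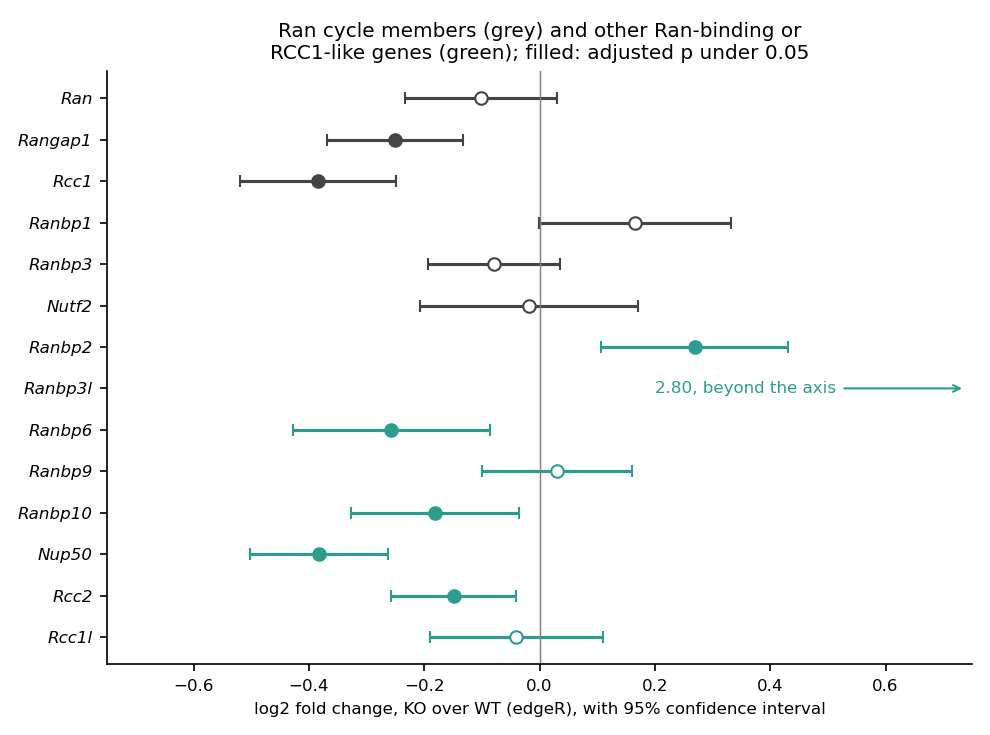
Log2 fold change of KO over WT (horizontal axis) with its 95% confidence interval for the tested Ran cycle members (grey) and other Ran-binding or RCC1-like genes (green), filled where the adjusted p was under 0.05. Ranbp3l, at 2.80, lies beyond the axis, and Rcc1 (-0.38) and Nup50 (-0.38) lie furthest to the left.

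The carriers that work with Ran were described next. Of the 7 exportins 1 rose and 3 fell, with a median log2 fold change of -0.13, where 48.7% of all genes passed in either direction. Xpot, the tRNA exportin, rose by 0.32 (edgeR adjusted p = 0.000382), and Xpo5 (-0.28, adjusted p = 0.000818), Xpo7 (-0.20, adjusted p = 0.0230) and Cse1l, which returns importin alpha to the cytoplasm (-0.16, adjusted p = 0.0411), fell. Cse1l lost its call in 6 of 11 alternatives, DESeq2 among them (adjusted p = 0.0695), and Xpo7 in 4 of 11, with a log2 fold change of -0.13 without KO replicate 2 (adjusted p = 0.0509). Without KO replicate 2, where Xpo4 itself passed as higher (0.34, adjusted p = 0.000252), 2 exportins rose and 2 fell. Of the 11 members of the importin-beta family 1 rose and 5 fell, again beside 48.7% of all genes called. Ipo13 rose by 0.46 (adjusted p = 1.02e-05), and the largest falls were those of Ipo5 (-0.71, 68.8 ± 0.859 to 42.2 ± 1.7 FPKM, SD, n = 3, adjusted p = 1.44e-07), Ipo9 (-0.37, adjusted p = 0.000432) and Tnpo3 (-0.23, adjusted p = 0.00288). None of the 5 importin-alpha adaptors tested passed in edgeR with all libraries (1 had an unadjusted p under 0.05) or in DESeq2. Without KO replicate 2, a count added after seeing the data, 2 of them passed as higher. Kpna3 then had a log2 fold change of 0.15 (adjusted p = 0.0323) and Kpna4 one of 0.17 (adjusted p = 0.00933). Of 4 genes of the SUMO pathway that modifies RanGAP1, 1 fell, the protease gene Senp1 (-0.42, adjusted p = 0.000451), and the other 3 did not pass.

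**Figure D4:**
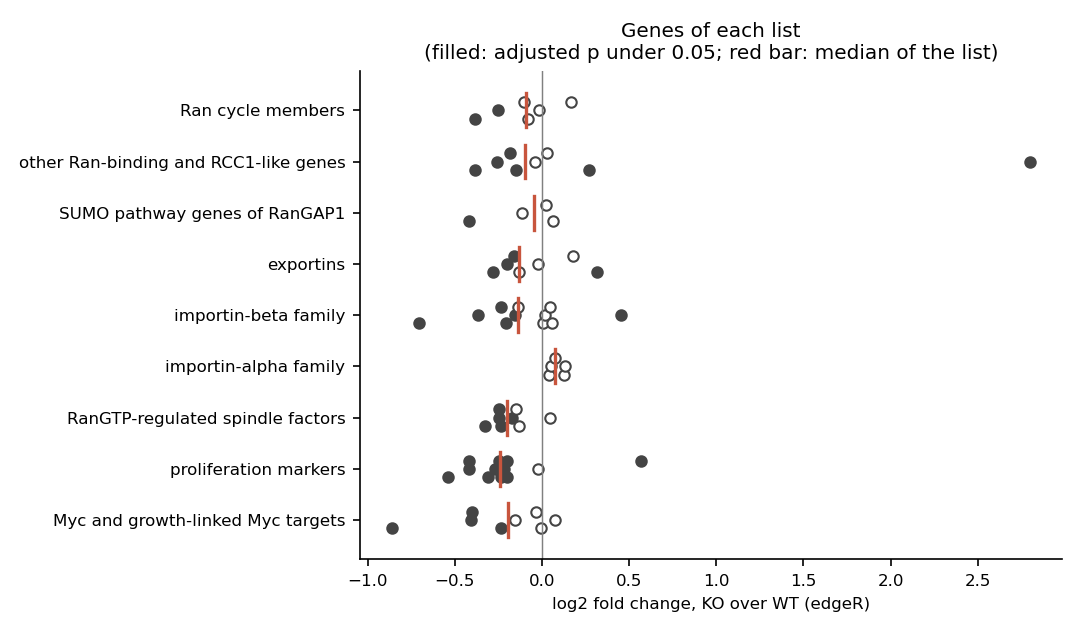
Log2 fold change of KO over WT (horizontal axis) of each tested gene in the Ran cycle and in 8 lists of related genes, filled where the adjusted p was under 0.05, with the median of each list as a red bar. The medians lie between -0.24 for proliferation markers and 0.08 for the importin-alpha family, and the point at 2.80 is Ranbp3l.

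RanGTP also frees spindle assembly factors from importins around mitotic chromosomes. Of 8 such factors 5 fell and none rose (median log2 fold change -0.20), where 23.6% of all genes fell, led by Numa1 (-0.33, edgeR adjusted p = 0.00158), Aurka (-0.25, adjusted p = 0.00722) and Kifc1 (-0.24, adjusted p = 0.00223). Of 12 proliferation markers 10 fell and 1 rose, with a median of -0.24, beside the same 23.6% lower and 25.1% higher among all genes. The replicative helicase genes Mcm6 (-0.54, adjusted p = 3.63e-06), Mcm7 (-0.42, adjusted p = 3.38e-05) and Mcm5 (-0.42, adjusted p = 2.67e-05) fell furthest, and Cdk1 rose (0.57, adjusted p = 2.36e-06). Of Myc and 7 growth-linked genes 4 fell and none rose, beside 23.6% of all genes called lower and 48.7% called in either direction. Myc itself fell from 49.4 ± 2.48 to 27.2 ± 0.320 FPKM (SD, n = 3, log2 fold change -0.86, adjusted p = 5.41e-08), and Ncl (-0.40, adjusted p = 4.37e-05) and Cad (-0.40, adjusted p = 0.000782) followed. Whether cell growth took part in the falls of Rcc1 and Rangap1 was not tested. Of the genes named in these lists, Ranbp2, Xpot and Cdk1, which rose, lie on chromosome 10. Ipo9, Mcm6 and Ncl, which fell, lie on chromosome 1. Nup50, Senp1 and Myc, which fell, lie on chromosome 15 with the member Rangap1, as does Ranbp3l, which rose. The median log2 fold change of chromosome 15 was -0.12 over 596 genes. The part of chromosome location in these changes was not tested.

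The genes whose pattern over the 6 libraries was most like that of a member were picked by the root mean square difference of log2 FPKM, each gene centred on its own mean, among 5299 other genes with a mean of at least 10 FPKM. Closest to Rcc1 were AU020206 (0.0252), the mitotic kinesin gene Kif20a (0.0258) and Mcm5 (0.0321). Closest to Rangap1 were Cdkn1a, which encodes the cell cycle inhibitor p21 (0.022), Prmt3 (0.0231) and Irf5 (0.0243). Closest to Ran were Dbn1 (0.0171), Cox7a2l (0.0188) and Adi1 (0.0203). In the same order, log2 fold changes were -0.33, -0.41 and -0.42 for the genes closest to Rcc1. They were -0.22, -0.23 and -0.23 for those closest to Rangap1, and -0.10, -0.07 and -0.07 for those closest to Ran. Such likeness includes a like change between the genotypes, and shared regulation was not tested. The tested neighbours within 1000000 bases of a member had median log2 fold changes between -0.08 for the 29 around Rcc1 and 0.10 for the 53 around Rangrf, with calls in both directions. Of the 29 around Rcc1, 4 passed as higher and 8 as lower, and its chromosome had a median of 0.019 over 876 genes. Of the 35 around Rangap1, 4 passed as higher and 11 as lower, with a median of -0.04. The chromosome of Rangap1 had a median of -0.12 over 596 genes. Among all genes tested, 25.1% passed as higher and 23.6% as lower.

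CircRNAs are closed by a backsplice that joins the end of an exon to the start of the same or an earlier one, and a read across that junction identifies them. The members gave 4 circRNAs, 1 from Ranbp3 and 3 from Rangap1, and the other 5 genes were listed with none. The junctions of the 3 seen in a nuclear or cytoplasmic fraction are printed, as 20 bases of the last exon in lower case followed by 20 of the first in capitals, on the strand of the gene, with exons numbered in a GENCODE transcript that holds both ends.
circRanbp3, exons 10 to 13, chr17:56706862-56708280: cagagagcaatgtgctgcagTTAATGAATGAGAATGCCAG
circRangap1, exons 5 to 6, chr15:81716567-81718922: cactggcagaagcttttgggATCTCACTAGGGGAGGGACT
circRangap1, exons 3 to 6, chr15:81716567-81722026: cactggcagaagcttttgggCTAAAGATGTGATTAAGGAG
The circles of Rangap1 end in the same exon and differ in where they begin. Their spliced lengths are 315 nt for exons 5 to 6, 503 nt for exons 3 to 6 and 650 nt for exons 2 to 6, and 393 nt for the circle of Ranbp3.

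The circle of Ranbp3 was the only one listed in the nucleus. In nuclear RNA its junction was read 0 and 1 times in WT but 8 and 6 times in KO. In total RNA the counts were 10 and 4 for WT and 5 and 5 for KO. The circle was listed in no cytoplasmic library of either genotype, so its share between nucleus and cytoplasm cannot be given. Both KO nuclear libraries lay above both WT libraries, as was so for 47.3% of the 1159 circRNAs listed in the nucleus, so the direction was a common one there. Over all circRNAs, nuclear junction reads numbered 3743 and 4383 in KO and 2189 and 2635 in WT. Divided by these totals, an alternative added after seeing the data, the order held for this circle, and for 34.9% of those listed.

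The circle of Rangap1 exons 5 to 6 had 13 and 14 junction reads in WT cytoplasm and 1 and 1 in KO, and 4 and 6 in WT and 0 and 2 in KO total RNA. Both KO cytoplasmic libraries were lower, as for 49.5% of the 9648 circRNAs listed in the cytoplasm, and for 43.8% after division by library total. These shares do not cover total RNA, for which no share is given here. For the longer circle of exons 3 to 6, WT cytoplasm gave 5 and 10 reads and KO cytoplasm 8 and 5, which overlap. In total RNA it was read 7 and 6 times in WT and 9 and 2 times in KO. The circle of exons 2 to 6 was listed only in total RNA (WT 4 and 2 reads, KO 2 and 5). These counts are few, 2 libraries against 2 cannot reach an exact p below 0.333, and no test was made.

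**Figure D5:**
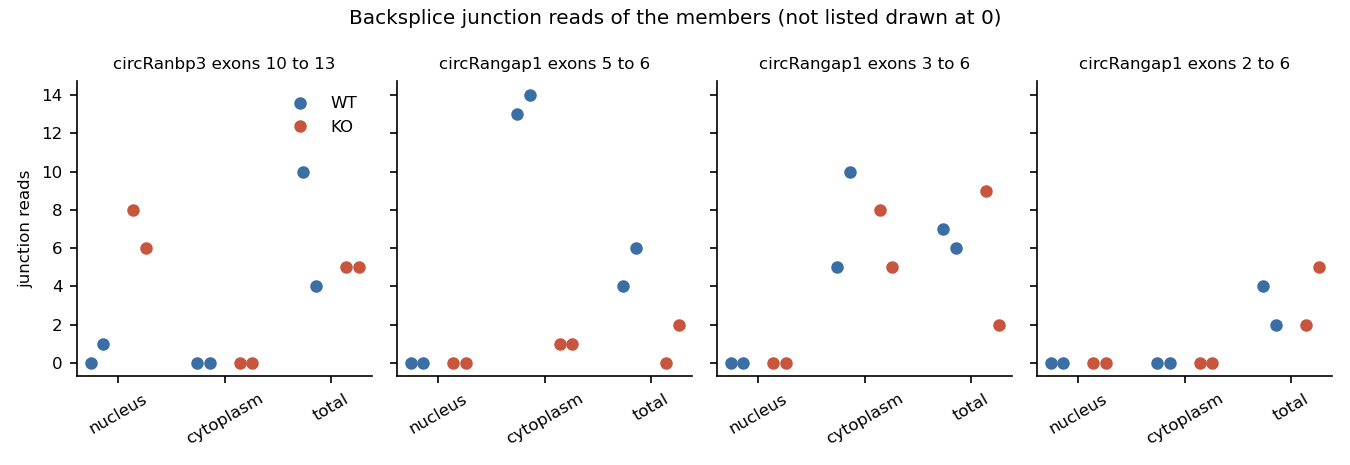
Backsplice junction reads (vertical axis) of the 4 circRNAs of the members in each nuclear, cytoplasmic and total library of WT (blue) and KO (red) cells, with circRNAs not listed in a library drawn at 0. The KO points of circRanbp3 in the nucleus (8 and 6) lie above WT, and those of circRangap1 exons 5 to 6 in the cytoplasm (1 and 1) lie below.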

How the data were processed

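Genotype, fraction and replicate number were taken from the sample titles. The authors mapped mRNA-seq reads with HISAT2 and deposited raw counts per gene from featureCounts (version 2.0.0, paired reads, exons grouped by gene, GRCm38). For circRNA-seq the authors deposited counts of junction reads per circRNA from find_circ, and filters before deposition are not given in the sources used here. Reads lacked molecular identifiers as far as stated, so limits from counts cover counting error only. Gene symbols matched 55141 of 55401 identifiers.

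FPKM was computed from the counts, the exon length in the files and the library total. Genotypes were compared over all genes that passed filterByExpr with edgeR (version 4.0.16, R 4.3.3; glmQLFit, glmQLFTest, TMM) and Benjamini-Hochberg adjustment at 0.05, with no covariate. Reported intervals are at 95%. Ratios between members were compared by two-sided exact permutation tests (scipy 1.17.1). In simulated counts for 14688 genes, the test recovered 22% of 100 genes changed 1.2-fold and 84% of 100 changed 1.5-fold. Far more genes passed in the data (7151), which loosens the Benjamini-Hochberg adjustment. These shares therefore do not say how often a change in a member would be missed. A missed call still does not show that a gene was unchanged. Replicate numbers did not pair the libraries (see the closing section). Overlapping exons came from GENCODE M21, promoter windows from RefSeq GRCm38.p6 and near copies from BLAST (version 2.17.0; at least 90% identity over 50% of a transcript).

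The members and gene lists were chosen with earlier results of these data known. Named were the members, Xpo4, all other Ran-binding and RCC1-like genes, and from every further list up to 3 called genes per direction with the largest fold change. Kpna3, Kpna4, Hba-a1, overlapping genes, near copies and markers at 0 were named after their values were seen. Alternatives were other scalings (RLE, library total), no filter, DESeq2 (version 1.42.0), TPM, a replicate block and leaving out each library. Some genes of the SUMO list are not reported here.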

Additional observations from a re-analysis of the deposited data

How the results depend on the processing

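The count of all genes called, 7151, lay between 6438 with DESeq2 and 7696 without a filter on low counts, and between 6143 and 7397 with a library left out. Of the members, 2 were called under other scalings and DESeq2, and 3 without the filter, in which Ranbp1 joined (log2 fold change 0.17), and between 2 and 3 with a library left out. With a library left out, the log2 fold change ranged from -0.153 to -0.051 for Ran, from -0.42 to -0.33 for Rcc1, from -0.28 to -0.22 for Rangap1, from 0.09 to 0.24 for Ranbp1, from -0.10 to -0.05 for Ranbp3 and from 0.10 to 0.34 for Xpo4. Ran (-0.15) and Xpo4 (0.34) passed without KO replicate 2, and Ranbp1 without KO replicate 1. Nutf2 ranged from -0.103 to 0.066 and turned its sign without WT replicate 3 (0.065) and without KO replicate 1 (0.066), and Rcc1l ranged from -0.088 to 0.014. The cause of these changes was not tested. Rangrf entered a fit without the filter (0.76, edgeR adjusted p = 0.570) and in DESeq2 (0.78, adjusted p = 0.698). The ratios kept their direction in all alternatives run, and the order of the 6 tested members by level was the same with TPM and with unshared exon bases. For 35 other named genes, 357 of 385 values kept direction and side of the threshold, 27 lost the call and 1 turned its sign.

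Same-numbered libraries did not deviate together (correlations of 0.0615, 0.0359 and -0.0889), so the numbers are names and not pairs. With the replicate number as a block, 7124 genes and 3 members were called, and Ranbp1 passed (log2 fold change 0.16, adjusted p = 0.04). For the ratios, the exact sign permutation over same-numbered libraries gave the same differences, and 3 pairs allow no p below 0.25.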
